A study of Mus musculus with 78 samples.

Results

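The 10 genes described here encode the receptor for interleukin-2 (IL-2), its kinase JAK3 and feedback products of the transcription factor STAT5. They are Il2ra, Il2rb, Il2rg, Jak3, Cish, Socs1, Socs2, Socs3, Pim1 and Pim2. They were taken by name from the 14695 genes of the count table. All 10 were in the table and all 10 passed the filter on low counts in every comparison. All libraries came from C57BL/6J mice, from primary CD8+ T cells of spleen and lymph node that had been activated for 3 days. For the nutrient groups, complete medium (Control) was replaced for 3 h by medium without methionine, glutamine, glucose, arginine or the branched-chain amino acids (BCAA). For the drug groups, DMSO as solvent control or 1 of 3 drugs was added for the same time, and doses are not given in the sources used here. Halofuginone inhibits prolyl-tRNA synthetase, Torin (Torin1) inhibits the kinase mTOR, and 4EGi1 (4EGI-1) blocks the binding of eIF4E to eIF4G. Each lysate gave total RNA and polysome RNA, the pool of gradient fractions 9 to 13 that hold mRNAs loaded with several ribosomes. Every group held 3 libraries. The labels do not say whether these were separate cultures or animals, so p-values measure only the spread between libraries.

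IL-2 drives the expansion of activated CD8+ T cells. Its receptor joins the alpha chain (Il2ra, CD25), which raises affinity, to the signalling beta chain (Il2rb) and the common gamma chain (Il2rg), which is shared with the receptors for IL-4, IL-7, IL-9, IL-15 and IL-21. JAK3 binds the gamma chain and JAK1 the beta chain, and together they activate STAT5. STAT5 in turn raises Il2ra, the SOCS family genes, whose proteins dampen JAK signalling, and the PIM kinases, which support survival and growth. Cish, Socs1, Socs2 and Socs3 are therefore both targets and brakes of the pathway.

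STAT factors bind DNA at palindromes of the form TTCNNNGAA, which reads the same on both strands. RefSeq promoter windows of build GRCm38.p6, from 250 bases before to 50 bases after a start, held 8 of the 10 genes. Il2rb and Socs2 were not matched. The form occurred in 8.30% of all 32851 windows and more than once in 0.457%. Of the 8 genes, Cish and Socs3 held it. Cish held it at positions 1 to 9 and again at 12 to 20 from its start, and Socs3 held it at positions -154 to -146. The 2 stretches are shown because they belong to the pair of feedback genes that held the form, with the matches in capitals.
Cish, chr9:107296619-107296683, plus strand: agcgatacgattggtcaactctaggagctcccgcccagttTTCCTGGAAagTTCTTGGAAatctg
Socs3, chr11:117969472-117969560, minus strand: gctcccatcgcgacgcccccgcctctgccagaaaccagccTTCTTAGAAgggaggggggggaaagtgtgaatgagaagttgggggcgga
A match describes the letters only, and its absence says nothing of a factor's binding.

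Total counts per library lay between 15144663 and 54272886. All 7 genes listed as CD8 T cell markers were present, at a summed 1166 to 4153 CPM. They were Cd3d, Cd3e, Cd3g, Cd8a, Cd8b1, Trac and Lck, so the sum also counts genes of T cells in general. Of the markers of other cells, 3 of 5 for CD4 and regulatory T cells, 3 of 5 for B cells, 2 of 8 for myeloid cells, 2 of 5 for NK cells and 0 of 5 for erythroid cells were in the table, and the others were not analysed here. Of those in the table, Cd79a (B cells), H2-Aa (antigen presentation) and Foxp3 (regulatory T cells) reached at most 0.599, 1.29 and 2.76 CPM in any library. The others reached more, namely Cd79b 18.8 CPM, Eomes 24.6 CPM, Zbtb7b 24.9 CPM, Gzma 32.4 CPM, Ikzf2 48.0 CPM, and Ighm and H2-Ab1 136 CPM each. Some marker sums moved with the groups. On polysomes the CD8 sum was 1770 to 2078 CPM in Control and 1166 to 1258 CPM without methionine. The sum of the CD4 and regulatory T cell markers in total RNA was 31.9 to 35.4 CPM in Control and 47.1 to 51.2 CPM without glutamine, and 20.6 to 22.0 CPM in DMSO and 31.7 to 32.6 CPM with 4EGi1. The part of other cells in the results was not tested. Levels below are CPM, read counts scaled to a common library size with TMM factors. A mean is given ± SD over 3 libraries, and levels are compared within a gene only. Changes are log2 fold changes ± standard error. A gene is called, and said to rise or fall, at an adjusted p under 0.05 by edgeR's quasi-likelihood test, with Benjamini-Hochberg adjustment over all genes of the comparison. TMM scaling makes every change relative to the other genes. In bulk RNA, fewer cells of a type and less RNA per cell cannot be told apart.

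Before any stress, the members differed in how far their mRNA was represented on polysomes. In Control, 7 of the 10 genes were higher in polysome than in total RNA and 2 were lower, where 65.7% of all genes were called. Pim2 had the highest ratio of the 10 at 0.93 ± 0.05 (adjusted p = 3e-16), followed by Il2ra at 0.69 ± 0.08 and Il2rb at 0.60 ± 0.08. Socs1, a direct inhibitor of JAK kinases, had the lowest at -1.33 ± 0.12 (adjusted p = 1.8e-11). Its level was 26.2 ± 1.54 CPM in total RNA and 10.3 ± 1.62 CPM on polysomes. Socs2 was also lower on polysomes (-0.48 ± 0.09), whereas the ratio of Il2rg (-0.17 ± 0.16, adjusted p = 0.36) was not called. The small excess of Jak3 (0.34 ± 0.15, adjusted p = 0.042) was lost when 4 entries derived from ribosomal RNA were left out of the scaling (0.20, adjusted p = 0.25) and with the size factors of the RLE method (0.26, adjusted p = 0.13). The median ratio was 0.36 for the members and 0.093 for all genes. Without those 4 entries the median of all genes became -0.049. The ratio of every member was lower there too, with Pim2 at 0.79, Il2ra at 0.55 and Il2rb at 0.46.

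In DMSO-treated cells of the drug experiment, 3 members were higher and 4 lower on polysomes, where 59.3% of all genes were called. There Socs2 stood at -1.32 ± 0.12, Il2ra at -1.12 ± 0.15 and Il2rb at -0.68 ± 0.14, while Il2rg stood at 0.59 ± 0.16 and Pim2 at 0.52 ± 0.10. Socs1 was lower on polysomes there too (-0.49 ± 0.13, adjusted p = 0.0022). By their labels, the nutrient libraries were made from total RNA and those of the drug experiment from polyA RNA. The experiments were not fitted together, so these values stand side by side without a test.

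The first question was how loss of a single nutrient for 3 h changes the pathway's total RNA. Of the 10 members, 1 rose without arginine, where 9.24% of all genes were called. Without BCAA, 4 rose and 2 fell (30.1% of all genes). Without glucose, 2 rose and 5 fell (40.8%). Without glutamine, 1 rose and 3 fell (39% of all genes), and without methionine 5 rose and 2 fell (35.2%). The median change of the members was -0.27 without glucose and 0.19 without methionine, where the medians of all genes were 0.025 and 0.022. All 5 comparisons share the Control libraries.

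**Figure D1:**
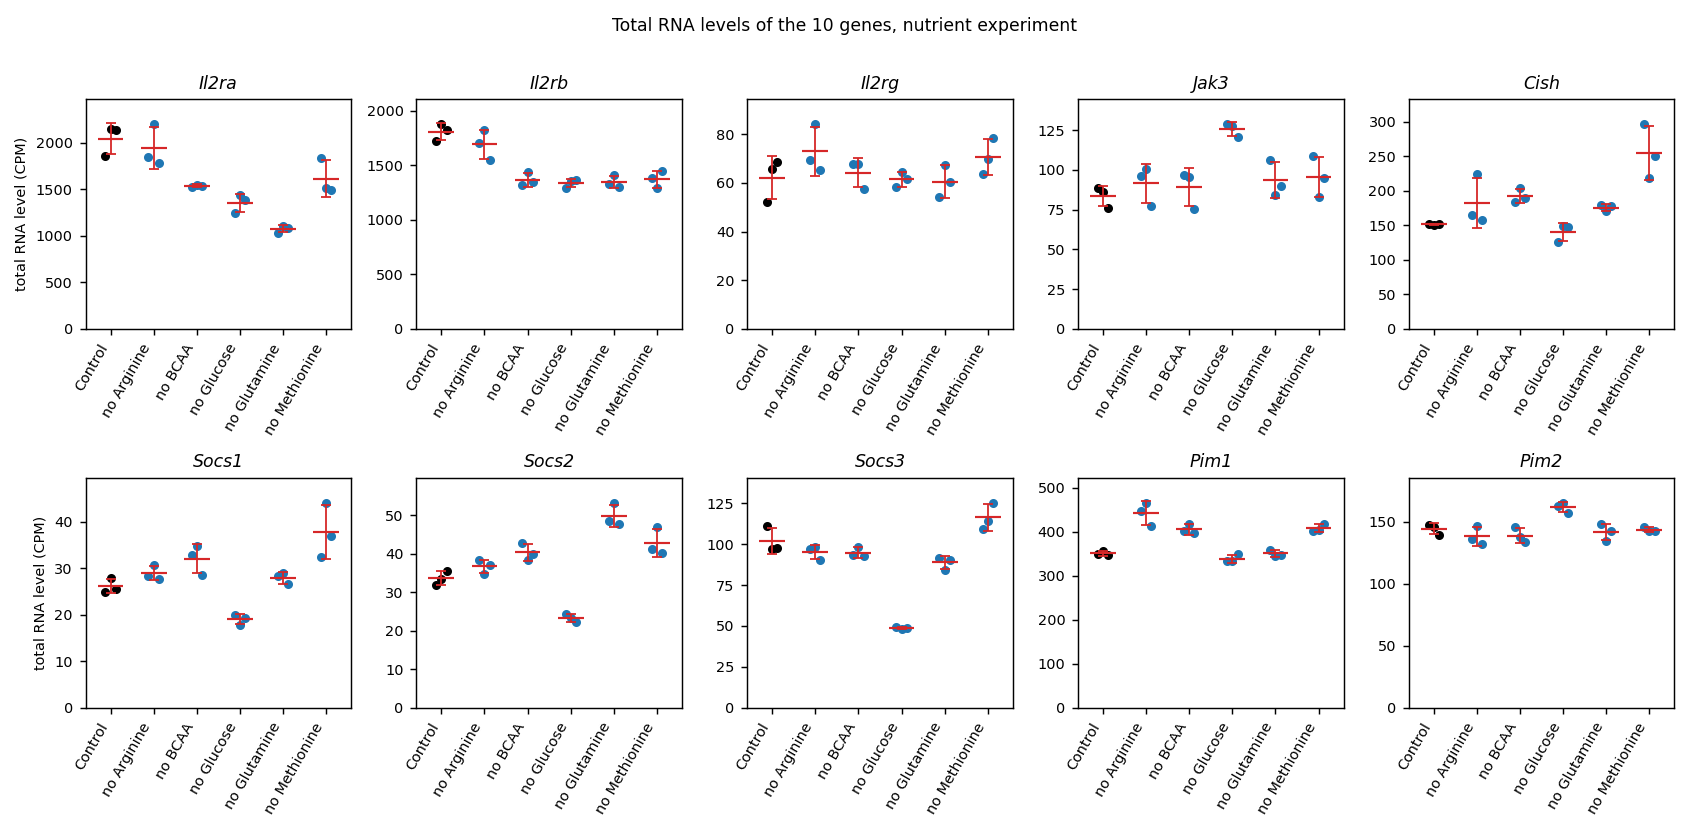
Total RNA level (CPM, linear axis from 0) of the 10 genes in the 6 groups of the nutrient experiment. Points are libraries (Control in black), red lines are means and bars SD over 3 libraries. Il2ra is lowest without glutamine (mean 1074 CPM), and Socs3 is lowest without glucose (mean 48.6 CPM).

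Il2ra, the chain that sets the receptor's affinity, fell in 4 of the 5 deprivations. In the Control libraries it stood at 1853, 2143 and 2131 CPM in total RNA. Without glutamine it stood at 1033, 1104 and 1086 CPM, a fall of 0.93 ± 0.09 on the log2 scale (adjusted p = 3.5e-08). Without glucose it stood at 1247, 1433 and 1385 CPM (-0.59 ± 0.09, adjusted p = 1.8e-05). Without BCAA it stood at 1518, 1549 and 1538 CPM (-0.41 ± 0.09, adjusted p = 0.0011), and without methionine at 1838, 1516 and 1488 CPM (-0.34 ± 0.09, adjusted p = 0.0045). No library of these 4 groups reached the lowest Control library. The change without arginine (-0.07 ± 0.09, adjusted p = 0.67) was not called. In total RNA the CD8 marker sum was 1589 to 1738 CPM in Control and 1419 to 1541 CPM without glutamine. From the highest level to the lowest, the order was Control, no arginine, no methionine, no BCAA, no glucose and no glutamine. Of the 5 steps in it, arginine to methionine (adjusted p = 0.029, in a pair where 25.1% of all genes were called) and glucose to glutamine (adjusted p = 0.0056, 32.5% of all genes) were called, and the other 3 were not (adjusted p of 0.67, 0.66 and 0.13).

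On polysomes the fall of Il2ra was called in all 5 deprivations. The 3 Control libraries held 3225, 3130 and 3367 CPM. Without glutamine the libraries held 1299, 1430 and 1405 CPM (-1.23 ± 0.06, adjusted p = 2e-12), 0.425 times the Control level. Without methionine they held 1727, 1705 and 1733 CPM (-0.91 ± 0.06, adjusted p = 9e-11), 0.531 times the Control level. These are the larger 2 of the 5 falls, and in neither group did a library come near the Control range. The fall was -0.68 ± 0.06 without glucose, -0.60 ± 0.06 without BCAA and -0.23 ± 0.06 without arginine (adjusted p = 0.0034). Of all genes tested, 11.5% were lower on polysomes in all 5 deprivations. The CD8 marker sum on polysomes was 1770 to 2078 CPM in Control. It was 1230 to 1399 CPM without glutamine and 1166 to 1258 CPM without methionine. Il2ra was not tested against this sum.

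Il2rb, the beta chain shared by the IL-2 and IL-15 receptors, fell in total RNA in the same 4 deprivations as Il2ra. Total RNA held 1725, 1879 and 1823 CPM in Control and 1292, 1356 and 1367 CPM without glucose (-0.43 ± 0.07, adjusted p = 2.9e-05). The changes were -0.42 ± 0.07 without glutamine, -0.40 ± 0.07 without BCAA and -0.40 ± 0.07 without methionine, with no overlap between any of these groups and Control. Without arginine the change was -0.10 ± 0.07 (adjusted p = 0.41). On polysomes it fell by 0.62 ± 0.08 without glutamine (adjusted p = 1.2e-06), by 0.61 ± 0.08 without BCAA, by 0.46 ± 0.08 without methionine and by 0.35 ± 0.08 without glucose. Of all genes, 6.23% were lower in total RNA in at least 4 of the 5 deprivations, and Il2ra and Il2rb were the members among them.

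Il2rg, the common gamma chain, rose on polysomes in all 5 deprivations. Its total RNA was called in none of the 5 deprivations, with changes between -0.04 ± 0.11 and 0.23 ± 0.11. On polysomes the Control libraries held 47.9, 49.4 and 65.9 CPM. The libraries without methionine held 100.1, 110 and 116 CPM (1.00 ± 0.17, adjusted p = 3.5e-05). Those without arginine held 92.6, 99.4 and 74.7 CPM (0.71 ± 0.17, adjusted p = 0.0029), and those without BCAA 73.8, 99.4 and 92.0 CPM (0.70 ± 0.17, adjusted p = 0.0018). Every library of these 3 groups lay above every Control library. Without glutamine the libraries held 60.0, 103 and 85.8 CPM (0.61 ± 0.17, adjusted p = 0.0042), and without glucose 62.1, 77.1 and 84.4 CPM (0.45 ± 0.17, adjusted p = 0.028). In both of these groups 1 library lay below the highest Control library. The call without glucose was lost in 4 of 6 fits that left out 1 library, namely Control replicate 1, Control replicate 2, No Glucose replicate 2 or No Glucose replicate 3 (adjusted p of 0.072 to 0.12). Of all genes tested on polysomes, 11.4% rose in all 5 deprivations. A rise on polysomes in all 5 deprivations with no call in total RNA was found for 1.96% of 12195 genes, and Il2rg was the only member among them.

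Jak3, the kinase that docks on the gamma chain, rose in total RNA without glucose. It stood at 88.6, 85.9 and 76.2 CPM in Control and at 129, 127 and 121 CPM without glucose (0.59 ± 0.11, adjusted p = 0.00028), with no overlap. The other 4 changes lay between 0.10 ± 0.11 and 0.19 ± 0.11 and were not called. On polysomes the Control libraries held 121, 76.6 and 115 CPM. There Jak3 rose without methionine, with libraries at 160, 158 and 218 CPM (0.78 ± 0.17, adjusted p = 0.00035), and without glucose, with libraries at 177, 142 and 142 CPM (0.56 ± 0.17, adjusted p = 0.0066). Without glutamine Jak3 was not called on polysomes, but was when Control replicate 1 (0.47, adjusted p = 0.029) or No Glutamine replicate 3 (0.43, adjusted p = 0.048) was left out.

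**Figure D2:**
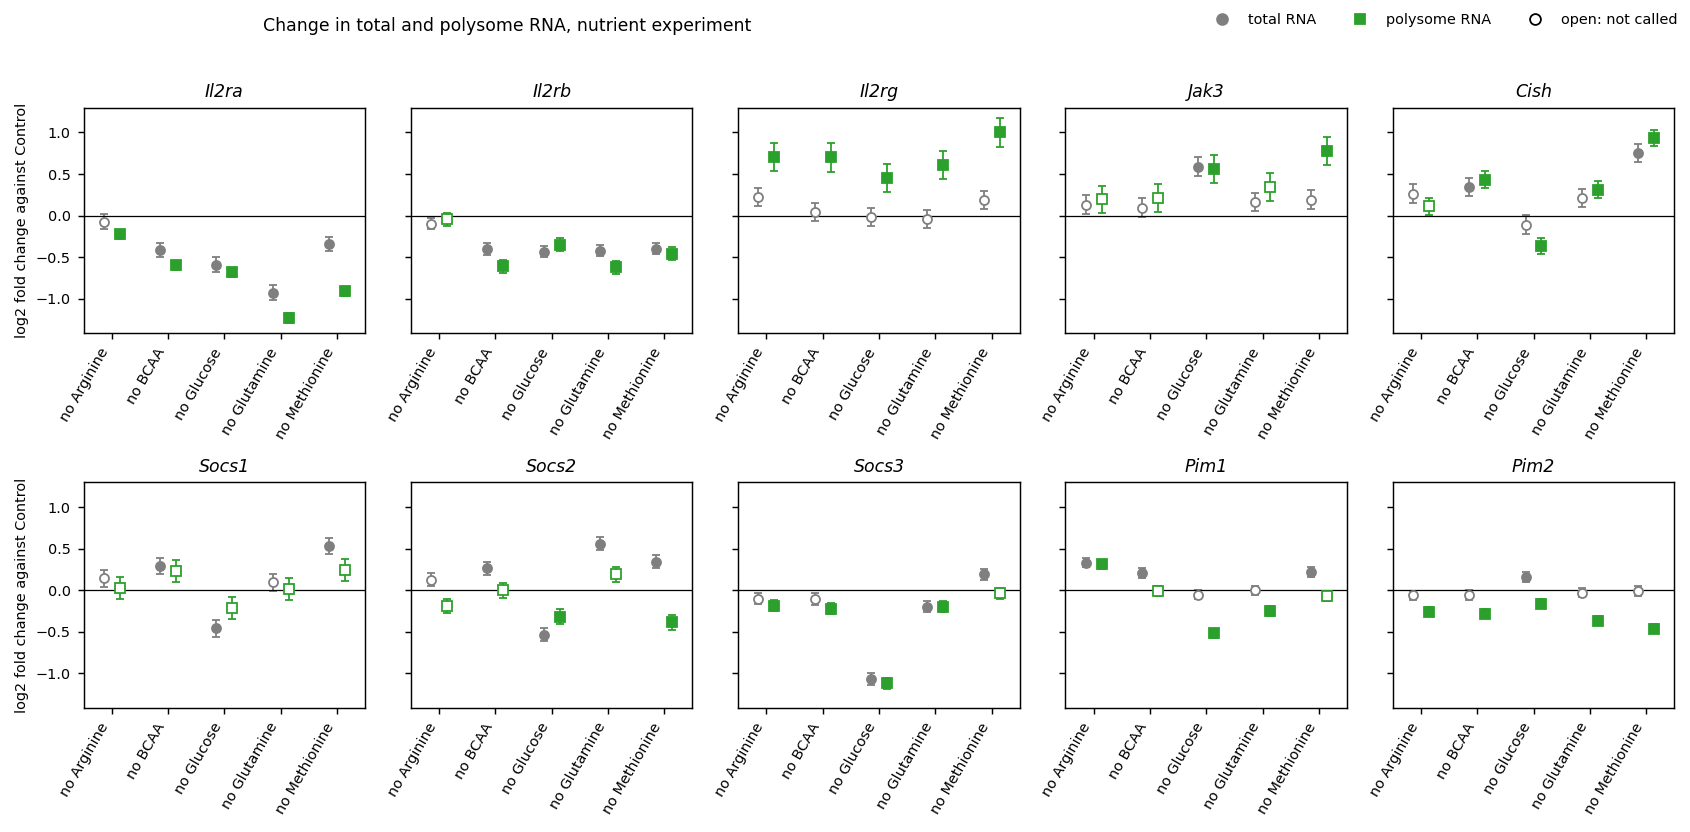
Log2 fold change against Control of the 10 genes in total RNA (grey circles) and polysome RNA (green squares) for the 5 deprivations. Bars are standard errors of the fit, and open symbols were not called. Il2rg was called on polysomes in all 5 deprivations and in total RNA in none, and Pim2 lies below 0 on polysomes in all 5.

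In total RNA all 4 SOCS family genes rose without methionine, while Socs1, Socs2 and Socs3 fell without glucose. Cish, whose product competes at phosphorylated receptor tails, stood at 152, 151 and 153 CPM in Control and at 297, 219 and 250.0 CPM without methionine (0.75 ± 0.11, adjusted p = 1.7e-05). All 3 libraries without methionine lay above Control. Cish also rose without BCAA (0.35 ± 0.11, adjusted p = 0.021). That call was lost without Control replicate 2, Control replicate 3 or No BCAA replicate 2 (adjusted p of 0.052 to 0.084). On polysomes Cish held 214, 164 and 207 CPM in Control and 360, 346 and 410 CPM without methionine (0.93 ± 0.10, adjusted p = 1e-07). There it also rose without BCAA (0.43 ± 0.10, adjusted p = 0.0011) and without glutamine (0.31 ± 0.10, adjusted p = 0.0094), and fell without glucose (-0.37 ± 0.10, adjusted p = 0.0035). Without Control replicate 2, the rise without glutamine was 0.19 (adjusted p = 0.089).

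Socs3, an inhibitor of cytokine receptors that signal through gp130 and others, showed the largest fall of the 10 genes in total RNA of the nutrient experiment. It stood at 111, 97.1 and 97.6 CPM in Control and at 49.3, 47.9 and 48.6 CPM without glucose (-1.07 ± 0.07, adjusted p = 2.1e-10). On polysomes it fell from 129, 119 and 130 CPM to 61.8, 54.0 and 58.1 CPM (-1.12 ± 0.07, adjusted p = 1.9e-10). The groups lay far apart in both fractions, and the level without glucose was below that of the next lowest deprivation, glutamine, in total RNA (adjusted p = 8.1e-09). The other calls of Socs3 were small. In total RNA they were -0.20 ± 0.07 without glutamine (adjusted p = 0.025) and 0.19 ± 0.07 without methionine (adjusted p = 0.031). The first was lost without Control replicate 1 or No Glutamine replicate 2 (adjusted p of 0.16 and 0.11). The second was lost without Control replicate 2, Control replicate 3 or No Methionine replicate 3 (adjusted p of 0.13 to 0.17). On polysomes Socs3 also fell without BCAA (-0.22 ± 0.07, adjusted p = 0.0083). Its calls there without arginine (-0.19 ± 0.07, adjusted p = 0.031) and without glutamine (-0.20 ± 0.07, adjusted p = 0.014) were each lost when certain single libraries were left out. Those were Control replicate 1 or 3 and No Arginine replicate 1 or 2 for the first (adjusted p of 0.083 to 0.10). They were Control replicate 3 and No Glutamine replicate 2 or 3 for the second (adjusted p of 0.054 to 0.067). The arginine call was also lost with RLE size factors (-0.15, adjusted p = 0.084), without the filter on low counts (-0.16, adjusted p = 0.081) and in DESeq2 (-0.15, adjusted p = 0.061).

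Socs1 stood at 25.0, 27.9 and 25.6 CPM in Control, at 32.4, 44.1 and 37.1 CPM without methionine (0.53 ± 0.10, adjusted p = 0.00018) and at 19.9, 17.8 and 19.4 CPM without glucose (-0.46 ± 0.10, adjusted p = 0.00097). Neither group overlapped Control. Its rise without BCAA (0.29 ± 0.10, adjusted p = 0.026) was lost without Control replicate 1 or 3 or No BCAA replicate 1 or 2 (adjusted p of 0.077 to 0.13). On polysomes, where Socs1 held 8.41 to 11.5 CPM in Control, no deprivation was called, and the changes lay between -0.21 ± 0.13 (no glucose) and 0.24 ± 0.13 (no methionine). The first was called without Control replicate 2 (-0.34, adjusted p = 0.038) and the second without Control replicate 1 (0.33, adjusted p = 0.049).

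Socs2, known as a brake on growth hormone receptor signalling, was the one SOCS gene whose total RNA was highest without glutamine. It stood at 32.0, 33.6 and 35.7 CPM in Control and at 48.6, 53.2 and 47.8 CPM without glutamine (0.56 ± 0.07, adjusted p = 3.5e-06). The level without glutamine was above that without methionine (0.22, adjusted p = 0.037), which itself was above Control (0.34 ± 0.07, adjusted p = 0.0011). Without glucose it stood at 24.3, 23.3 and 22.3 CPM (-0.54 ± 0.08, adjusted p = 1.2e-05). None of these 3 groups overlapped Control. The rise without BCAA (0.26 ± 0.07, adjusted p = 0.011) was lost without Control replicate 1 or No BCAA replicate 1 (adjusted p of 0.053 and 0.059). On polysomes the picture differed. Socs2 held 22.5, 26.3 and 22.6 CPM in Control and 18.6, 18.4 and 17.6 CPM without methionine, a fall (-0.39 ± 0.09, adjusted p = 0.00072) where its total RNA rose. It also fell on polysomes without glucose (-0.32 ± 0.09, adjusted p = 0.0045). Its change there without glutamine (0.19 ± 0.09, adjusted p = 0.062) was called with the replicate number as a block (0.19, adjusted p = 0.041) and without Control replicate 2 (0.26, adjusted p = 0.024). Its change there without arginine was called without No Arginine replicate 3 (-0.28, adjusted p = 0.015).

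The PIM kinases, which phosphorylate regulators of survival and translation, each had different calls in total RNA and on polysomes. Both fell on polysomes without glucose and without glutamine, and they were not tested against each other. Pim1 total RNA stood at 349, 357 and 347 CPM in Control and rose without arginine (447, 465 and 412 CPM, 0.33 ± 0.06, adjusted p = 0.00069). It also rose without methionine (0.22 ± 0.06, adjusted p = 0.0046) and without BCAA (0.21 ± 0.06, adjusted p = 0.008), and the step from arginine to methionine loss was not called (adjusted p = 0.16). None of these 3 groups overlapped Control. On polysomes, where Control held 476, 463 and 495 CPM, Pim1 rose without arginine (619, 584 and 576 CPM, 0.31 ± 0.06, adjusted p = 0.00044). It fell there without glucose (350.3, 315 and 335 CPM, -0.52 ± 0.06, adjusted p = 4.4e-07) and without glutamine (404, 406 and 395 CPM, -0.25 ± 0.06, adjusted p = 0.00094). The total RNA of Pim1 was not called without glucose (-0.05 ± 0.06) or without glutamine (-0.0021 ± 0.056).

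Pim2, which has a role close to that of Pim1, was lower on polysomes in all 5 deprivations. Control libraries held 278, 262 and 270.4 CPM on polysomes, and the libraries without methionine held 197, 192 and 198 CPM (-0.47 ± 0.05, adjusted p = 2.6e-07). The other falls were -0.37 ± 0.05 without glutamine, -0.28 ± 0.05 without BCAA, -0.26 ± 0.05 without arginine and -0.16 ± 0.05 without glucose (adjusted p = 0.013), and none of the 5 groups overlapped Control. The call without glucose was lost without Control replicate 1 (-0.14, adjusted p = 0.053). In total RNA Pim2 was called without glucose alone, and there it rose, from 148, 146 and 139 CPM to 163, 165 and 158 CPM (0.16 ± 0.06, adjusted p = 0.032). That call was lost with RLE size factors (adjusted p = 0.051) and without Control replicate 2 or 3 or No Glucose replicate 1 or 2 (adjusted p of 0.059 to 0.12).

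Over the 10 members, polysome RNA gave 2 rises and 3 falls without arginine (40.5% of all genes called) and 2 rises and 4 falls without BCAA (56.1%). It gave 2 rises and 7 falls without glucose (59% of all genes), 2 rises and 5 falls without glutamine (64.5%) and 3 rises and 4 falls without methionine (69%). The members' medians were -0.33 without glucose and -0.091 without glutamine, where those of all genes were -0.010 and -0.018.

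Whether the polysome change exceeded that in total RNA was tested as translational efficiency (TE), the change of the polysome to total ratio against Control. The members called were 1 without arginine (16.5% of all genes), 5 without BCAA (26.9%), 2 without glucose (25.8%), 5 without glutamine (35.2%) and 7 without methionine (49.1%). In this fit, which did not pair the libraries of a lysate, all calls were lower except 2 without methionine, Il2rg and Jak3. With the lysate as a block, the members called were 2, 7, 3, 6 and 7 in the order above. There Il2rg was called higher in the other deprivations too. TE depends on how the 2 fractions are scaled. The median over all genes was -0.039 without arginine, -0.12 without BCAA, -0.075 without glucose, -0.15 without glutamine and -0.14 without methionine. In the same order it moved to 0.029, 0.012, 0.050, 0.013 and -0.013 when the 4 ribosomal RNA entries (Rn18s-rs5, Mir6236, mt-Rnr1 and mt-Rnr2) were left out. The share of higher calls among all TE calls moved with it, from 40.7% to 61% without arginine, from 29.8% to 60.5% without BCAA, from 34.3% to 60% without glucose, from 28.4% to 54.5% without glutamine and from 39.2% to 50.6% without methionine. With RLE size factors it was 43%, 51% and 49.5% without BCAA, glucose and glutamine.

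Pim2 had lower TE in all 5 deprivations, as did 5% of all genes. Its changes were -0.55 ± 0.08 without methionine (adjusted p = 4.2e-07), -0.48 ± 0.08 without glutamine, -0.41 ± 0.08 without glucose and -0.33 ± 0.08 without BCAA. These 4 calls held without the ribosomal RNA entries, at -0.42, -0.32, -0.29 and -0.20. The change without arginine (-0.21 ± 0.08, adjusted p = 0.050) was lost with the lysate as a block (adjusted p = 0.059), without those entries (-0.14, adjusted p = 0.18), with RLE size factors (adjusted p = 0.052) and without the filter on low counts (adjusted p = 0.059). It was also lost in 5 of 6 fits that left out 1 lysate, the exception being No Arginine replicate 3 (adjusted p of 0.080 to 0.27). Pim1 TE was lower without glucose (-0.55 ± 0.08, adjusted p = 2.1e-06), glutamine (-0.39 ± 0.08) and methionine (-0.38 ± 0.08). Without the ribosomal RNA entries these stood at -0.43, -0.23 and -0.25 and were still called. Its fall without BCAA (-0.33 ± 0.08, adjusted p = 0.0019) was lost there (-0.19, adjusted p = 0.072).

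Socs2 TE was lower without methionine (-0.82 ± 0.12, adjusted p = 1.3e-06) and without glutamine (-0.51 ± 0.12, adjusted p = 0.0012), and both calls held without the ribosomal RNA entries (-0.70 and -0.35). Its call without BCAA (-0.37 ± 0.12, adjusted p = 0.020) was lost without those entries (-0.24, adjusted p = 0.15), with RLE size factors (-0.31, adjusted p = 0.060) and without Control replicate 2 or No BCAA replicate 1 (adjusted p of 0.14 and 0.15). Without arginine it was called only with the lysate as a block (-0.34, adjusted p = 0.045) and without No Arginine replicate 3 (-0.42, adjusted p = 0.017). Il2ra TE was lower without methionine (-0.66 ± 0.11, adjusted p = 5.2e-06) and without glutamine (-0.45 ± 0.11, adjusted p = 0.0015), at -0.54 and -0.28 without the ribosomal RNA entries, where both were called. Its call without BCAA (-0.30 ± 0.11, adjusted p = 0.039) was lost without those entries (-0.16, adjusted p = 0.30), with RLE size factors (-0.23, adjusted p = 0.098), in DESeq2 (-0.23, adjusted p = 0.073) and in 5 of 6 fits that left out 1 lysate, the exception being Control replicate 2 (adjusted p of 0.079 to 0.12). The calls of Il2rb without BCAA (-0.32 ± 0.11, adjusted p = 0.028) and without glutamine (-0.34 ± 0.11, adjusted p = 0.015) were also lost without those entries (adjusted p of 0.23 for both). With RLE size factors they were lost too (adjusted p of 0.072 and 0.14), and in DESeq2 (adjusted p of 0.050 and 0.11). For BCAA 5 of 6 fits that left out 1 lysate lost it, all but Control replicate 1 (adjusted p of 0.064 to 0.11). For glutamine the fits without Control replicate 3 or No Glutamine replicate 1 lost it (adjusted p of 0.073 and 0.059).

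Il2rg TE rose without methionine (0.73 ± 0.22, adjusted p = 0.0065). In the other 4 deprivations the fit without pairing gave 0.55 ± 0.22 without BCAA, 0.51 ± 0.22 without glutamine, 0.47 ± 0.22 without arginine and 0.39 ± 0.22 without glucose, none of them called (adjusted p of 0.064, 0.073, 0.15 and 0.21). With the lysate as a block, all 4 were called, at 0.54 (adjusted p = 0.0034), 0.49 (adjusted p = 0.006), 0.47 (adjusted p = 0.015) and 0.38 (adjusted p = 0.035). The BCAA and glutamine values were also called with RLE size factors, in DESeq2, without the ribosomal RNA entries, and without No BCAA replicate 1 (0.72, adjusted p = 0.036) or No Glutamine replicate 1 (0.62, adjusted p = 0.030). Jak3 TE rose without methionine (0.50 ± 0.21, adjusted p = 0.046). That call was lost without the filter on low counts (adjusted p = 0.055) and without Control replicate 2, No Methionine replicate 2 or No Methionine replicate 3 (adjusted p of 0.086 to 0.26). Socs3 TE fell without methionine (-0.32 ± 0.09, adjusted p = 0.004), and the call was lost without the ribosomal RNA entries (-0.19, adjusted p = 0.077). Its change without BCAA was called with the lysate as a block (-0.23, adjusted p = 0.050), where the fit without pairing gave an adjusted p of 0.062, and without Control replicate 1 (-0.29, adjusted p = 0.029). Cish and Socs1 TE were called in no deprivation. Single lysates mattered for both: without No Glucose replicate 1 Cish was at -0.48 without glucose (adjusted p = 0.045), and without Control replicate 2 or No Methionine replicate 1 Socs1 was at -0.54 or -0.50 without methionine (adjusted p of 0.014 and 0.019).

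The deprivations were also tested against each other, with p-values adjusted over all genes in each pair. The pair of glucose and methionine loss separated 8 members in total RNA, where 34% of all genes were called. Against methionine loss, glucose loss had lower Socs3 (-1.26), Socs1 (-0.99), Socs2 (-0.88), Cish (-0.86), Pim1 (-0.27) and Il2ra (-0.25), and higher Jak3 (0.40) and Pim2 (0.17). On polysomes, where 52.7% of all genes were called, the difference of Cish between the 2 was -1.30 and that of Socs3 -1.08. Glutamine loss had lower Il2ra than each of the other 4 deprivations, by 0.85 against arginine (36.1% of all genes called), 0.52 against BCAA (14.2%), 0.34 against glucose (32.5%) and 0.59 against methionine loss (25.7%), all called.

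In the drug experiment the same 10 genes were compared with DMSO. With halofuginone none of them was called in total or polysome RNA. By edgeR 35 of all genes (0.279%) were called in total RNA and 6 (0.0491%) in polysome RNA. At an unadjusted p under 0.05, 2 and 1 of the 10 members passed in total and polysome RNA. At that threshold 1080 of 12535 genes passed in total RNA and 1481 of 12223 in polysome RNA. DESeq2 called 0 members in either fraction. Torin raised 5 and lowered 2 members in total RNA, where 26.7% of all genes were called, and 4EGi1 lowered 6 and raised 0, where 26.4% were called. The members' medians were 0.27 with Torin and -0.42 with 4EGi1, and those of all genes were 0.012 and 0.0074. The 3 comparisons share the DMSO libraries.

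**Figure D3:**
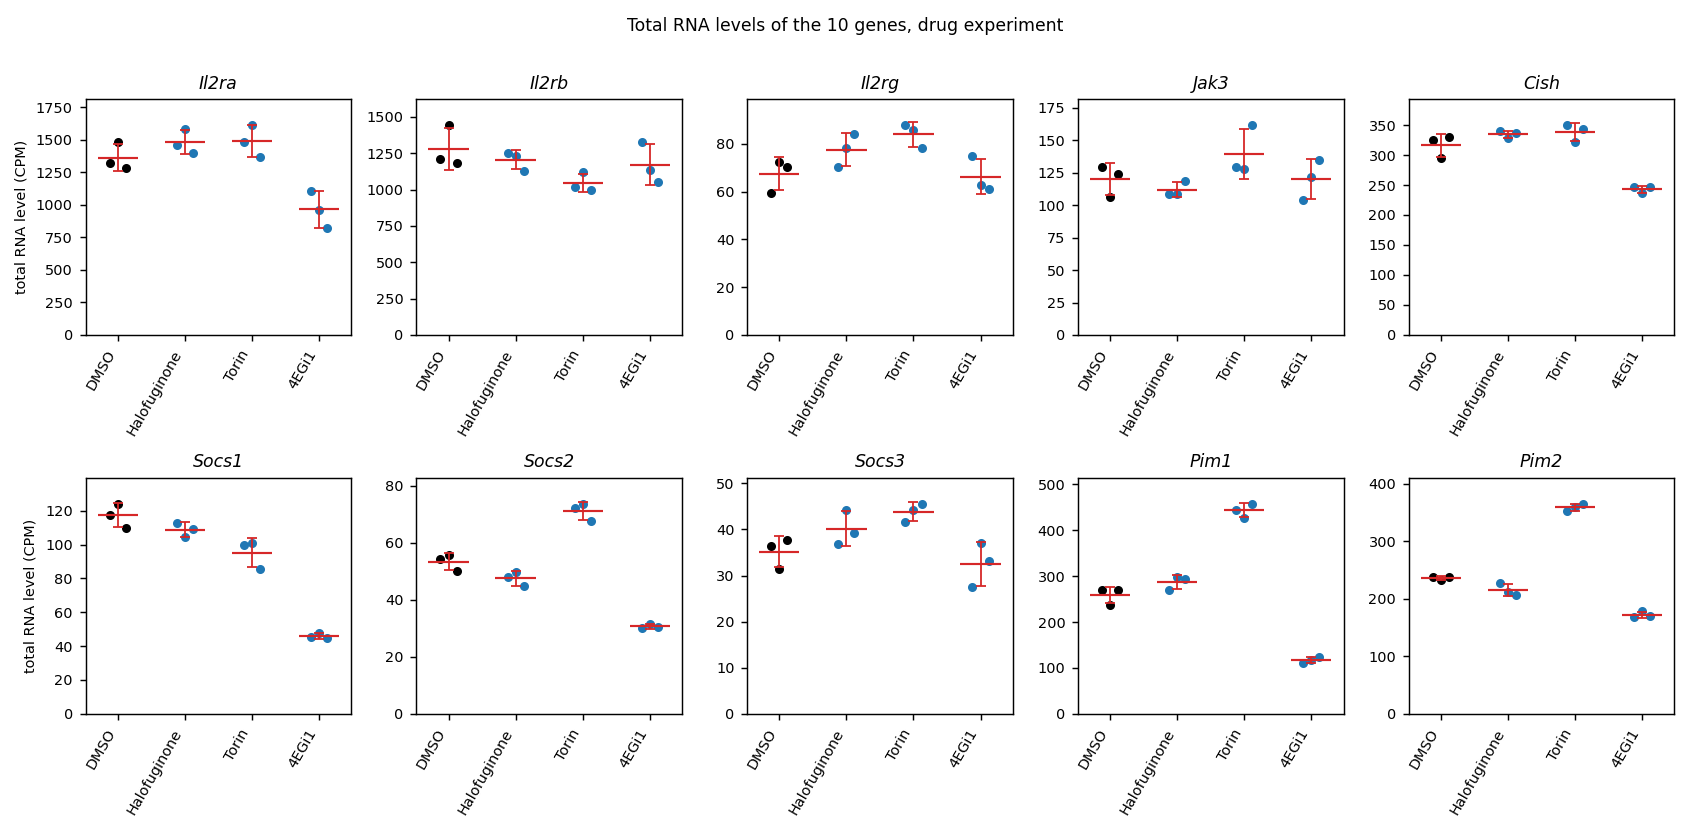
Total RNA level (CPM, linear axis from 0) of the 10 genes in the 4 groups of the drug experiment. Points are libraries (DMSO in black), red lines are means and bars SD over 3 libraries. Pim1 has means of 259 CPM in DMSO, 444 CPM with Torin and 117 CPM with 4EGi1.

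The PIM kinases showed the largest changes of the 10 genes with Torin. Pim1 total RNA stood at 269, 238 and 269 CPM in DMSO, at 445, 428 and 458 CPM with Torin (0.78 ± 0.07, adjusted p = 9.6e-07) and at 111, 116 and 123 CPM with 4EGi1 (-1.15 ± 0.07, adjusted p = 1.5e-08). The 3 groups did not overlap, and Torin exceeded 4EGi1 by 1.92. On polysomes Pim1 changed by 0.73 ± 0.16 with Torin (adjusted p = 0.0043) and by -1.17 ± 0.16 with 4EGi1 (adjusted p = 8.6e-05). Pim2 stood at 238, 232 and 238 CPM in DMSO, at 353, 359 and 365 CPM with Torin (0.61 ± 0.06, adjusted p = 2.8e-06) and at 168, 178 and 171 CPM with 4EGi1 (-0.46 ± 0.06, adjusted p = 5.7e-05), again without overlap. On polysomes Pim2 rose with Torin from 350.4, 279 and 310 CPM to 597, 539 and 560 CPM (0.85 ± 0.13, adjusted p = 0.00023). With 4EGi1 its polysome change (-0.34 ± 0.13, adjusted p = 0.052) was not called by edgeR. DESeq2 called it (-0.32, adjusted p = 0.031), as did edgeR without DMSO replicate 3 (-0.39, adjusted p = 0.050).

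Among the SOCS family, 4EGi1 lowered Socs1, Socs2 and Cish. Socs1 had the largest fall of the 10 genes, from 118, 124 and 110 CPM in DMSO to 45.4, 47.9 and 44.5 CPM (-1.35 ± 0.08, adjusted p = 6.9e-09), 0.392 times the DMSO level. On polysomes it fell from 71.5, 88.9 and 71.1 CPM to 25.1, 29.8 and 31.1 CPM (-1.43 ± 0.17, adjusted p = 2.8e-05). Socs2 fell from 54.2, 55.7 and 50.0 CPM to 30.0, 31.6 and 30.5 CPM in total RNA (-0.80 ± 0.08, adjusted p = 1.4e-06). Cish fell from 325, 295 and 330 CPM to 247, 236 and 246 CPM (-0.38 ± 0.07, adjusted p = 0.00045), and by 0.46 ± 0.12 on polysomes (adjusted p = 0.0086). No library of these groups overlapped DMSO. Torin raised Socs2 (72.1, 73.8 and 67.5 CPM, 0.42 ± 0.07, adjusted p = 0.00052) and lowered Socs1 (99.5, 101 and 85.3 CPM, -0.30 ± 0.08, adjusted p = 0.0084). With Torin Socs3 stood at 0.32 ± 0.11 in total RNA (adjusted p = 0.037). That call was lost in 5 of 6 fits that left out 1 library, all but DMSO replicate 4 (adjusted p of 0.058 to 0.16). In polysome RNA, Torin gave changes of 0.46 ± 0.16 in Socs2 and 0.40 ± 0.18 in Socs3 that were not called (adjusted p of 0.053 and 0.15), and both were called with the replicate number as a block (adjusted p of 0.041 and 0.037). Socs2 was also called there with RLE size factors (adjusted p = 0.040), without the filter on low counts (adjusted p = 0.043) and in DESeq2 (adjusted p = 0.022), and without DMSO replicate 4 (0.64, adjusted p = 0.018) or Torin replicate 3 (0.58, adjusted p = 0.038). With 4EGi1 DESeq2 also called Socs2 on polysomes (-0.42, adjusted p = 0.041), where edgeR did not.

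Of the receptor chains, 4EGi1 lowered Il2ra total RNA, from 1321, 1484 and 1284 CPM in DMSO to 1109, 962 and 825 CPM (-0.50 ± 0.10, adjusted p = 0.0011), without overlap. On polysomes Il2ra was not called (0.11 ± 0.17, adjusted p = 0.66). Torin gave -0.29 ± 0.09 in Il2rb total RNA (adjusted p = 0.026), a call lost without DMSO replicate 3, Torin replicate 1 or Torin replicate 4 (adjusted p of 0.071 to 0.12). With 4EGi1, Il2rb was called only with the replicate number as a block (-0.21, adjusted p = 0.038). Il2rg rose with Torin in total RNA (0.32 ± 0.10, adjusted p = 0.023) and on polysomes (0.60 ± 0.19, adjusted p = 0.038). The first call was lost without DMSO replicate 1, Torin replicate 1 or Torin replicate 3 (adjusted p of 0.074 to 0.12). The second was lost without those libraries or DMSO replicate 4 (adjusted p of 0.076 to 0.16). Jak3 was not called with any drug. With Torin it was called with the replicate number as a block in total RNA (0.22, adjusted p = 0.038) and in polysome RNA (0.39, adjusted p = 0.033), and on polysomes in DESeq2 (adjusted p = 0.034) and without DMSO replicate 3 (0.57, adjusted p = 0.014).

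**Figure D4:**
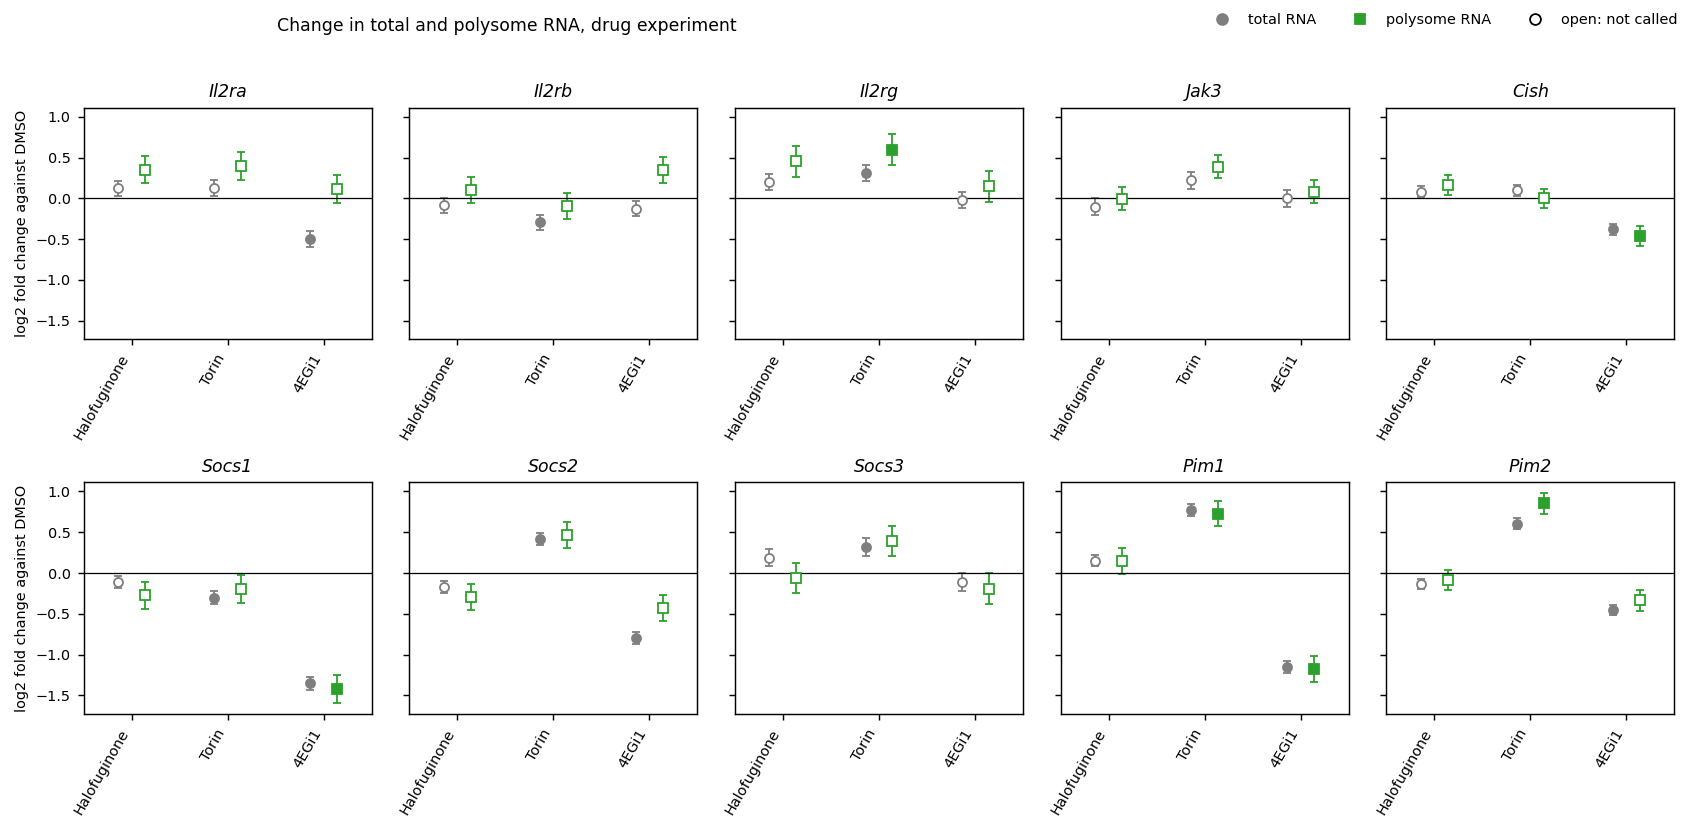
Log2 fold change against DMSO of the 10 genes in total RNA (grey circles) and polysome RNA (green squares) for the 3 drugs. Bars are standard errors of the fit, and open symbols were not called. In total RNA Pim1, Pim2 and Socs2 lie above 0 with Torin and below 0 with 4EGi1, and no symbol of halofuginone is filled.

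In polysome RNA, Torin raised 3 members (16.8% of all genes called) and 4EGi1 lowered 3 (28.6%). No member was called for TE with any drug by edgeR. At an unadjusted p under 0.05, 0, 1 and 3 of the 10 members passed with halofuginone, Torin and 4EGi1. Of all 12745 genes tested, 675, 1640 and 2084 passed at that threshold. DESeq2 called 0 members with each drug. At the adjusted threshold, edgeR called 0%, 1.79% and 0.565% of all genes. With 4EGi1 the TE of Il2ra was 0.67 ± 0.21 (adjusted p = 0.12), and it was called with the lysate as a block (0.66, adjusted p = 0.020). Tested against each other, Torin and 4EGi1 differed in 8 of the 10 members in total RNA, all higher with Torin, where 37.3% of all genes were called. In polysome RNA they differed in 6 members, also all higher with Torin, where 22% of all genes were called. Besides Pim1 these were Socs2 (1.21 in total RNA, 0.89 on polysomes), Pim2 (1.06 and 1.19), Socs1 (1.05 and 1.23), Cish (0.48 and 0.46) and Socs3 (0.43 and 0.59). Il2ra (0.63) and Il2rg (0.34) were called in total RNA, and their polysome differences (0.29 and 0.45) were not.

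Other genes of the pathway were counted in 4 lists. Of 9 JAK and STAT genes measured, 7 rose and 1 fell on polysomes without methionine, with a median of 0.44 against -0.026 for all genes, where 69% of all genes were called. In total RNA 4 fell and 0 rose, where 35.2% of all genes were called. Stat5a, one of the 2 STAT5 genes, was named after its values were seen. It fell in total RNA without glutamine (-0.32 ± 0.07, adjusted p = 0.00052) and rose on polysomes without methionine (0.59 ± 0.10, adjusted p = 4.1e-05). Of 4 other cytokine receptors and ligands measured, 2 rose and 0 fell on polysomes without arginine, BCAA or glutamine, where 40.5%, 56.1% and 64.5% of all genes were called. Il4ra, the IL-4 receptor chain that pairs with the gamma chain, rose there by 1.75 ± 0.12 without methionine and 0.86 ± 0.12 without arginine.

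Of 16 further genes reported as STAT5 targets or regulated by IL-2, 2 rose and 10 fell in total RNA without glucose, where 40.8% of all genes were called, with a median of -0.35 against 0.025 for all genes. With 4EGi1 2 rose and 9 fell, where 26.4% were called, with a median of -0.53 against 0.0074. Without methionine 6 rose and 4 fell (35.2% of all genes). Lta, which encodes lymphotoxin alpha, fell by 0.98 ± 0.09 without glucose and by 1.25 ± 0.14 with 4EGi1. Prf1, which encodes perforin, fell by 1.45 ± 0.09 without glutamine and by 0.82 ± 0.09 with Torin. Osm, the cytokine oncostatin M, rose by 0.92 ± 0.08 without methionine. On polysomes Id2, a repressor of E proteins, fell by 1.51 ± 0.09 without glutamine and by 1.30 ± 0.09 without methionine.

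Of 16 other brakes, phosphatases and ligases among them, 6 rose and 6 fell in total RNA without glucose (40.8% of all genes called) and 7 rose and 2 fell without glutamine (39%). The SUMO ligase gene Pias4 rose by 0.86 ± 0.11 without glucose and by 0.79 ± 0.11 without glutamine. Ptpn6, which encodes the phosphatase SHP-1, fell by 0.59 ± 0.07 without BCAA. With 4EGi1 the SOCS gene Socs5 rose by 0.71 ± 0.15 in total RNA and by 1.26 ± 0.31 on polysomes (adjusted p of 0.0019 and 0.0059), at 2.60 ± 1.17 CPM on polysomes in DMSO. The ubiquitin ligase gene Cblb rose with Torin by 0.58 ± 0.10 in total RNA and 0.75 ± 0.18 on polysomes.

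The genes whose total RNA followed 4 members most closely over the 18 nutrient libraries were sought among 12038 genes, with Pearson's r of log2 levels as a description. Libraries of 1 group share their treatment, so these points are not independent. For Cish the closest was Myc, the growth transcription factor, with r of 0.953 over the nutrient libraries and 0.915 over the 12 drug libraries. The next, Rskr and Slc23a2, had 0.912 and 0.899 over the nutrient libraries and -0.85 and -0.90 over the drug libraries. For Socs1 it was the cytokine gene Tnf, with 0.948 and 0.833, followed by Batf (0.938 and 0.389) and Tafazzin (0.934 and 0.256). For Pim1 it was the potassium channel gene Kcnn4 (0.928 and 0.879), followed by Spry1, an inhibitor of receptor tyrosine kinase signalling (0.917 and 0.996), and Tmc6 (0.917 and 0.915). For Il2ra the closest were Slc16a6, Nus1 and Dag1, with 0.974, 0.962 and 0.945 over the nutrient libraries and -0.51, 0.0094 and -0.61 over the drug libraries.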

How the data were processed

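The authors deposited a table of raw counts per Ensembl gene, whole numbers without normalization, for 60 of 78 libraries. The other 18, of monosome fractions, were not analysed here. The submitters' processing notes name HTSeq, STAR, Trimmomatic, MultiQC, FastQC and edgeR, and build GRCm39; versions are not given in the sources used here. The table's counting strand is not given either. The analysis used R 4.3.3, edgeR 4.0.16 (filterByExpr with a minimum count of 10, TMM, glmQLFit and glmQLFTest) and DESeq2 1.42.0 as an alternative, per experiment and fraction, with TE as the interaction of fraction and condition. The code was tested on simulated data.

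The members, gene lists and tests were chosen with earlier results of these data known. Named were all members, in each comparison the called pathway gene with the largest rise and fall, and the 3 genes most like Il2ra, Cish, Socs1 and Pim1; a selection of these is given. Each lysate gave both a total and a polysome library, per the labels' protocols, which pairs them. Their residuals correlated at a mean of 0.119 (nutrient) and 0.154 (drug). Within a fraction, residuals of libraries with the same replicate number correlated between -0.29 and 0.546. Their means were 0.059 (nutrient total), 0.139 (nutrient polysome), 0.107 (drug total) and 0.082 (drug polysome). The labels do not say that this number pairs libraries, so it entered only as a block in an alternative fit. A pair of drug polysome libraries, Torin replicate 3 and 4EGi1 replicate 2, carry an R in their names whose meaning is not given in the sources used here. They were used like the others.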

Additional observations from a re-analysis of the deposited data

How the results depend on the processing

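Counts of members called kept within 1.5 times under RLE size factors, no filter on low counts, DESeq2, a block and without 4 ribosomal RNA entries (added after seeing the data), except as follows. For TE without arginine, 1 member was called, but 0 with RLE size factors, 0 without the filter, 0 without the 4 entries and 2 with the lysate as a paired block. For TE without BCAA, 5 were called, but 3 after RLE scaling and 2 when the 4 entries were left out. For Torin in polysome RNA, 3 were called, but 5 in DESeq2 and 6 with the replicate block. For 4EGi1 in polysome RNA, 3 were called, but 5 in DESeq2, and for 4EGi1 in TE, 0 were called, but 1 with the lysate as a block. A count can stay the same while its members change. For TE without glutamine, 5 members were called, all lower. With RLE size factors, in DESeq2 and without the 4 entries, 5 were called there too, 1 higher and 4 lower. Beyond the calls named in the report, the replicate block and the lysate block changed no call of a member against its control.

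No called change of a member reversed its direction. Leaving out 1 library or lysate at a time, called members numbered 1 to 1 (no arginine), 4 to 6 (BCAA), 6 to 7 (glucose), 3 to 4 (glutamine) and 6 to 7 (methionine) in total RNA, and in the same order 4 to 6, 6 to 6, 7 to 9, 6 to 8 and 7 to 8 in polysome RNA, and 0 to 2, 3 to 5, 2 to 3, 4 to 5 and 6 to 8 in TE. The lowest TE count without BCAA came without No BCAA replicate 1. With halofuginone they numbered 0 in each. With Torin they were 4 (without Torin replicate 1) to 7 in total RNA, 2 to 4 in polysome RNA and 0 in TE, and with 4EGi1 6, 3 to 4 and 0. Tests between conditions were not run with libraries left out.

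Over all genes, leaving out 1 library moved the calls by over 1.5 times in 8 comparisons. These were no arginine in total RNA (1168, then 617 to 1243) and in TE (2162, then 526 to 2903), no glucose in TE (3370, then 2168 to 3260), Torin in polysome RNA (2051, then 1180 to 1740) and TE (228, then 74 to 242), 4EGi1 in TE (72, then 8 to 117), and halofuginone in total RNA (35, then 11 to 35) and polysome RNA (6, then 3 to 4). DESeq2 gave 85 and 60 calls for halofuginone, 392 for Torin in TE and 375 for 4EGi1 in TE. With the lysate as a block 4EGi1 in TE gave 630. Socs1 on polysomes of the nutrient experiment rested on 294 to 630 reads per library, the fewest of any member and group there.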
